A study of Homo sapiens with 4 samples.

Results

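The proteasome is the large protease that degrades proteins marked with ubiquitin in the cytosol and nucleus. Its core particle is a barrel of stacked alpha and beta rings, with the cutting sites of the beta subunits PSMB5, PSMB6 and PSMB7 facing the inner chamber. Its cap, the regulatory particle, binds ubiquitin chains, removes them and unfolds the substrate with a ring of ATPases. The genes of the complex are known to be expressed in every cell type and to be raised together by the transcription factor NFE2L1 when proteasome activity is limiting. Cancer cells are known to depend on it, and inhibitors of PSMB5 are used in the clinic.

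The genes described here were all symbols of the deposited table made of PSMA, PSMB, PSMC, PSMD, PSMF or PSMG and a number. The interferon-inducible subunits PSMB8, PSMB9 and PSMB10 were set apart as partners. There were 41 such genes among 19475 symbols, with 16 in the core, 17 in the cap, 3 cap assembly factors, 4 core chaperones and the inhibitor PSMF1. For a symbol with several transcripts, the row with the highest mean FPKM was used, where FPKM corrects the tags sequenced for transcript length and library size. The rule for choosing genes uses no measured difference between the conditions, but it was set with earlier results of these data known.

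The libraries, 4 in all, were mRNA-seq of SKOV3, an epithelial line established from a human ovarian cancer. The 2 TCP libraries were of cells on tissue culture plates, placed at day 0, and the 2 polymer X libraries were of tumor spheroids that formed on plates coated with that polymer, placed at day 8. All 4 came from the same line with no gene altered and no drug added, as far as the labels say. In the methods of the study, spheroids were dissociated enzymatically every few days. The labels give 1 growth protocol with serum replacement for all samples, whereas the methods describe fetal bovine serum for maintained SKOV3 cells, so it is uncertain which medium the TCP cells had. Substrate, culture time and, possibly, medium changed together, and their parts cannot be told apart. The study states independent replicates for its experiments in general, in a larger number than the 2 libraries per group here, and nothing says whether these libraries were separate cultures. The p-values therefore measure only the spread between these libraries. That spread is not of 1 gene alone, since the limma test draws each gene's variance toward a trend over all tested genes. The SE and intervals given below share this.

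The libraries held between 38404000 and 44917000 tags, as read from the steps between low values. A gene was tested if 2 or more libraries reached an FPKM of 1, which 11964 genes did. Over these genes the TCP replicates correlated at 0.998 and the polymer X replicates at 0.997, while pairs from different conditions lay between 0.854 and 0.862. The epithelial markers fixed for the cell line were present, with 5 of 7 at an FPKM of at least 1 on TCP and 6 of 7 on polymer X. Their summed FPKM was 640.3 and 653.8 on TCP against 1257 and 1207 on polymer X, where ERBB2, known to be amplified in SKOV3, had 198 and 206 against 913 and 860, while KRT8, KRT18 and KRT7 were lower on polymer X. KRT19 was below an FPKM of 1 in all 4 libraries, and EPCAM was below 1 on TCP.

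Nearly all proteasome genes were lower in the spheroids. Of the 39 that passed the filter on low values, 38 fell and 0 rose at an adjusted p under 0.05 (limma on log2(FPKM + 1), Benjamini-Hochberg over all tested genes). Over all tested genes, 43.6% were called lower and 37.4% higher, so a call alone was common in this comparison. A fall of at least 2-fold was less common, at 9.45% of all tested genes, with 10.7% rising by that much. It was reached by 15 of the 39 proteasome genes, and 0 rose that far. The 39 log2 fold changes had a median of −0.88, with a spread between replicates of 0.0785 (SD), against −0.058 over all tested genes. Proteasome genes are highly expressed, and when the test was limited to mean FPKM values of 5 and above, all genes had a median of −0.20, with 52.4% called lower and 11.8% lower by 2-fold or more. With quantile normalization, which forces the same distribution on all libraries, 36 of the 39 were still called lower, but 7 in place of 15 passed 2-fold, and the median was −0.65. All tested genes then had a median of −0.05, with 42.3% called lower and 8.53% lower by 2-fold or more.

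**Figure D1:**
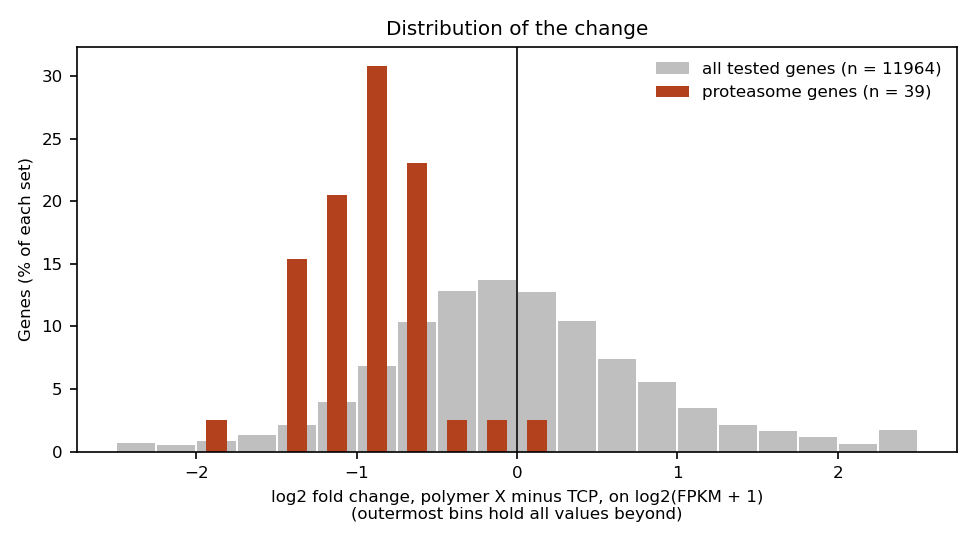
Percentage of genes (vertical axis) in each bin of log2 fold change, polymer X minus TCP on log2(FPKM + 1) (horizontal axis), for the 39 tested proteasome genes and for all 11964 tested genes. The proteasome genes sit between −1.92 and 0.01, with a median of −0.88, while all tested genes centre on −0.058.

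Summed over the 41 genes, the FPKM was 4139 and 3910 in TCP replicates 1 and 2, and 2157 and 1950 in polymer X replicates 1 and 2. The polymer X mean was 51.0% of the TCP mean, whereas the sum over all tested genes was 88.9% of TCP. FPKM is a share of each library, and in bulk RNA fewer cells with a gene on and less RNA per cell cannot be told apart. In 38 of the 39 tested genes, both polymer X libraries lay below both TCP libraries, a pattern found in 48.4% of all tested genes. The exception was the chaperone PSMG3. The least covered value among the tested genes rested on 263 tags and the most covered on 30890.

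**Figure D2:**
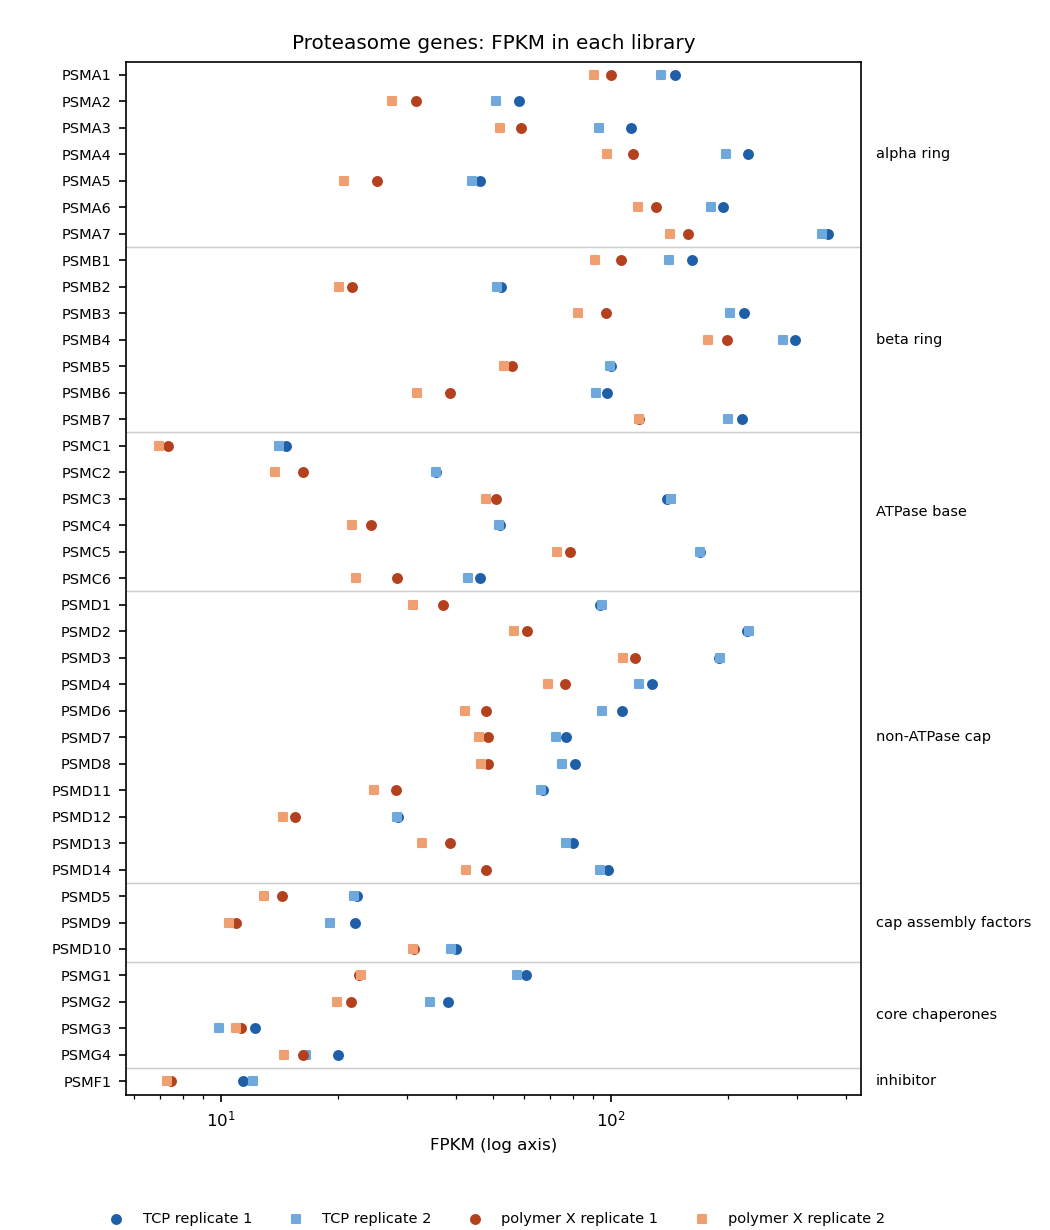
FPKM on a log axis (horizontal) of each of the 39 tested proteasome genes (vertical, by subunit class) in each of the 4 libraries. The 2 polymer X points lie to the left of the 2 TCP points for 38 genes, and only for PSMG3 do they overlap.

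The alpha ring, which forms the outer gate of the core, fell in all 7 tested members, with a median log2 fold change of −0.88. For comparison, 43.6% of all tested genes were called lower. PSMA7 had the highest FPKM of all proteasome genes on TCP, with 359 and 348, and had 157 and 142 on polymer X, where PSMB4 was higher. Its polymer X libraries were far below its TCP libraries, and the log2 fold change was −1.24 ± 0.07 (SE, n = 2 per group, limma adjusted p = 1.9e-07). PSMA7 was the only alpha subunit to fall by 2-fold or more. PSMA1 fell least in this ring, from 146 and 134 on TCP to 99.99 and 90.5 on polymer X, again without overlap. Its log2 fold change was −0.55 ± 0.07 (SE, limma adjusted p = 5.7e-05). Between these 2 genes stood PSMA4 at −0.99, PSMA5 at −0.95, PSMA3 at −0.88, PSMA2 at −0.86 and PSMA6 at −0.59 on the log2 scale. The eighth alpha gene, PSMA8, which is known from testis, had 1 tag in TCP replicate 1 and 0 in the other libraries and was not tested.

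The beta ring also fell in all 7 tested members, with a median log2 fold change of −0.86 and 3 members past 2-fold. Of all tested genes, 43.6% were called lower and 9.45% lower by 2-fold or more. Of the 3 catalytic subunits, PSMB6, which cuts after acidic residues, fell furthest. Its FPKM was 97.9 and 91.5 on TCP and 38.7 and 31.9 on polymer X, so that polymer X stood at 37.3% of TCP. PSMB5, the chymotrypsin-like subunit, had an FPKM of 100.1 and 99.5 on TCP and 55.9 and 53.2 on polymer X. PSMB7, the trypsin-like subunit, had 217 and 199 on TCP and 118 in both polymer X libraries. None of the 3 overlapped between conditions, and 48.4% of all tested genes likewise had both polymer X libraries below both TCP libraries. The log2 fold changes were −1.40 ± 0.09 for PSMB6, −0.86 ± 0.06 for PSMB5 and −0.81 ± 0.06 for PSMB7 (SE, limma adjusted p = 4.1e-07, 5.6e-07 and 1.8e-06).

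In the hg19 build used by the authors, the PSMB5 row spans chr14:23495060-23504429 on the minus strand, PSMB6 chr17:4699439-4701798 on the plus strand and PSMB7 chr9:127115744-127177752 on the minus strand. The structural beta subunits have no cutting site of their own. PSMB2 went from 52.4 and 51.0 on TCP to 21.7 and 20.1 on polymer X, and its log2 fold change was −1.27 ± 0.06 (SE, limma adjusted p = 7.7e-08). PSMB3 had an FPKM of 219 and 201 on TCP and 97.1 and 82.3 on polymer X, with a log2 fold change of −1.22 ± 0.08 (SE, limma adjusted p = 8.2e-07). Both thus fell by more than 2-fold with no overlap, beside shares of 9.45% and 48.4% over all tested genes. PSMB4 fell least, from 296 and 275 to 198 and 177, a log2 fold change of −0.61 ± 0.07 (SE, limma adjusted p = 3.9e-05), and PSMB1 had the same rounded value of −0.61. PSMB11, the subunit known from thymus, had 2 tags in TCP replicate 1 and in polymer X replicate 2 and 0 in the other libraries, and was not tested.

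All 6 genes of the ATPase base fell and 4 passed 2-fold, beside 43.6% and 9.45% of all tested genes. The median log2 fold change of the base was −1.15. These AAA-type ATPases unfold the substrate and thread it into the core. PSMC3 fell furthest, from an FPKM of 139 and 142 on TCP to 50.6 and 47.8 on polymer X. Polymer X was at 35.0% of TCP, and the log2 fold change was −1.50 ± 0.06 (SE, limma adjusted p = 2e-08). PSMC2 had 35.7 and 35.6 on TCP and 16.2 and 13.8 on polymer X, PSMC5 had 169.6 and 169 and then 78.4 and 72.6, and PSMC4 had 52.1 and 51.7 and then 24.2 and 21.7. In each of these genes the TCP replicates nearly coincided and the polymer X libraries lay well below them. Their log2 fold changes were −1.20, −1.15 and −1.14 (limma adjusted p = 5e-07, 1.3e-07 and 2.3e-07). PSMC6 fell least, from 46.3 and 43.0 to 28.3 and 22.2, a log2 fold change of −0.81 ± 0.10 (SE, limma adjusted p = 4.6e-05). PSMC1, at −0.92 on the log2 scale, had the lowest FPKM of the 17 cap genes, with 14.7 and 14.1 on TCP and 7.34 and 6.97 on polymer X.

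The 11 non-ATPase genes of the cap all fell and 6 passed 2-fold, beside 43.6% and 9.45% of all tested genes. Their class had a median log2 fold change of −1.07. The largest fall of any proteasome gene was that of PSMD2, a scaffold of the base that binds ubiquitin receptors and shuttle factors. Its FPKM was 224 and 226 on TCP and 60.8 and 56.3 on polymer X. The groups were far apart, with polymer X at 26.0% of TCP. The log2 fold change was −1.92 ± 0.06 (SE, limma adjusted p = 6.8e-09), and 1.45% of all tested genes had a lower one. The PSMD2 row spans chr3:184016886-184026842 on the plus strand of hg19. PSMD1, the other large scaffold of the base, went from 93.6 and 94.9 to 37.1 and 31.2, a log2 fold change of −1.44 ± 0.08 (SE, limma adjusted p = 1.8e-07). Both scaffolds were therefore among the genes that fell most.

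The lid of the cap holds PSMD14, the metalloprotease that cuts ubiquitin chains off the substrate. PSMD14 had an FPKM of 98.3 and 93.9 on TCP and 47.9 and 42.6 on polymer X, with no overlap and a log2 fold change of −1.07 ± 0.07 (SE, limma adjusted p = 5.1e-07). PSMD7, its partner in a dimer, fell least among the non-ATPase genes, from 76.8 and 72.2 to 48.4 and 45.9. Its log2 fold change was −0.65 ± 0.06 (SE, limma adjusted p = 6e-06). The lid genes PSMD11, PSMD6 and PSMD13 also passed 2-fold. PSMD11, known to hold the lid against the core, had 66.8 and 66.1 on TCP and 28.1 and 24.7 on polymer X, with a log2 fold change of −1.31 (limma adjusted p = 1.4e-07). PSMD6 had 107 and 95.1 and then 47.9 and 42.2, with a log2 fold change of −1.15 (limma adjusted p = 8e-07). PSMD13 had 80.1 and 76.9 and then 38.6 and 32.8, with a log2 fold change of −1.12 (limma adjusted p = 8.8e-07). None of these 3 overlapped between conditions. Both polymer X libraries lay below both TCP libraries in 48.4% of all tested genes, and 9.45% were lower by 2-fold or more. The ubiquitin receptor PSMD4 stood at −0.75, and the lid subunits PSMD12, PSMD3 and PSMD8 at −0.88, −0.76 and −0.70, on the log2 scale.

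Set side by side, the median log2 fold change was −0.87 for the 14 tested core genes and −1.12 for the 17 cap genes. A fall of 2-fold or more was reached by 4 core genes and 10 cap genes, and by 9.45% of all tested genes. The summed FPKM on polymer X was 54.1% of TCP for the core and 45.6% for the cap. The median log2(FPKM + 1) of the core exceeded that of the cap by 0.92 and 0.83 in the TCP libraries and by 1.03 and 1.01 in the polymer X libraries. The gap between core and cap was therefore somewhat wider on polymer X in both replicates. The difference between core and cap was not tested, since subunits are not replicates, and the ranges overlapped widely, from −1.40 to −0.55 in the core and from −1.92 to −0.65 in the cap.

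Although the subunits of each ring are present in equal numbers in the finished particle, their FPKM differed several-fold within every library. The highest core gene exceeded the lowest by 7.79 and 7.93 times on TCP and by 9.11 and 8.83 times on polymer X. For the cap the factor was 15.2 and 16.1 on TCP and 15.7 and 15.4 on polymer X. The coefficient of variation of FPKM over the core genes was 57.6% and 59.3% on TCP and 59.3% and 60.3% on polymer X, and over the cap genes it was 60.8%, 63.0%, 59.4% and 61.8% in the same order. Over the core and the cap as wholes, the relative spread was thus similar in the 2 conditions, while the levels themselves fell to about 51.0% of TCP in sum. Within the core, the rings moved in opposite directions. The coefficient of variation over the alpha ring was 66.6% and 70.6% on TCP and 57.4% and 58.8% on polymer X. Over the beta ring it was 52.5% and 51.6% on TCP and 65.5% and 66.1% on polymer X. FPKM is scaled to the length of 1 transcript per gene, so differences in level between genes also depend on which transcript was kept.

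**Figure D3:**
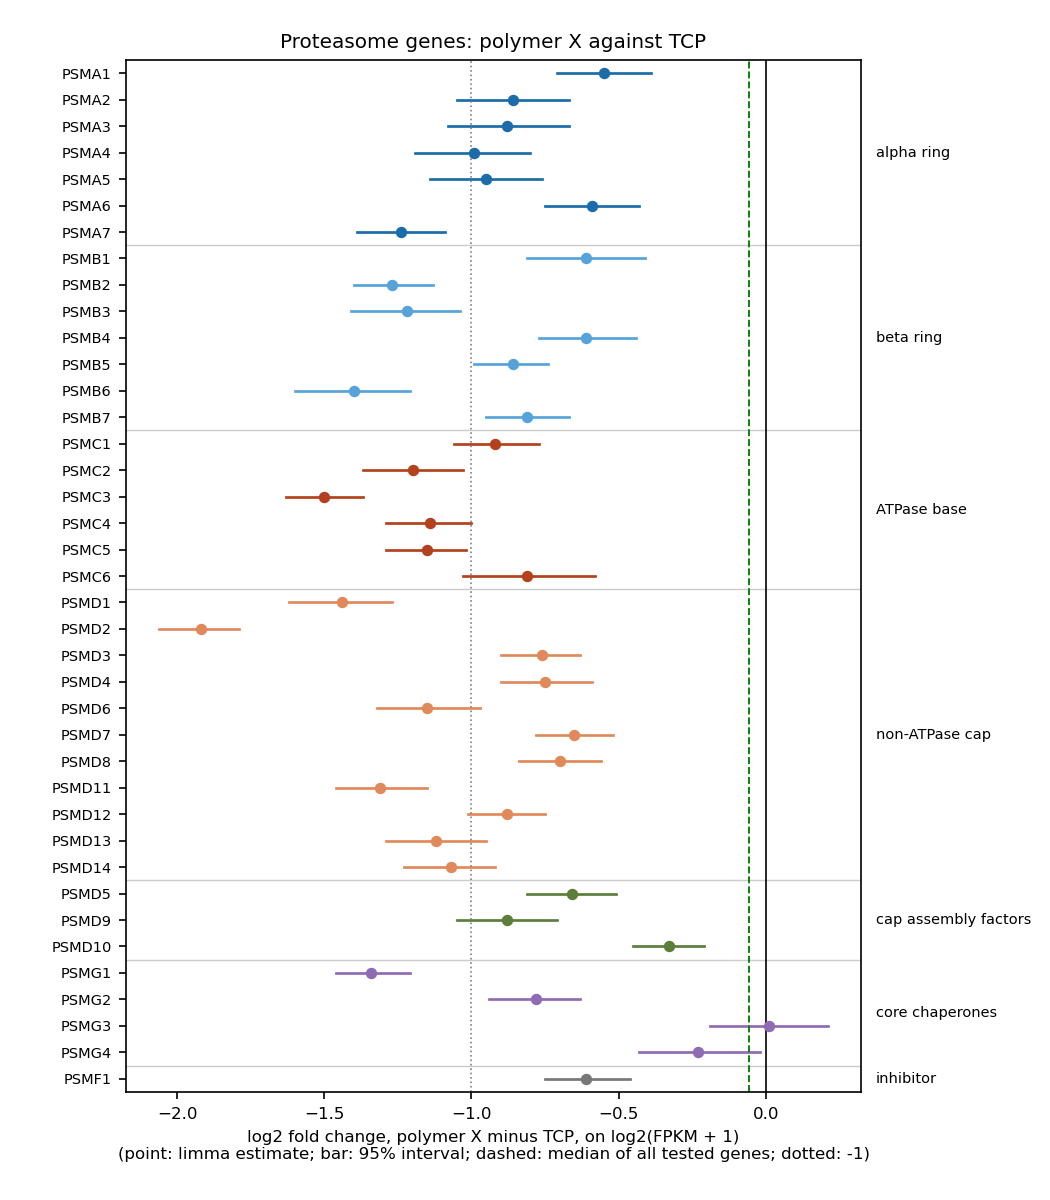
Log2 fold change, polymer X minus TCP on log2(FPKM + 1) (horizontal axis), for each of the 39 tested proteasome genes (vertical, coloured by subunit class). Points are limma estimates with 95% intervals, and only the interval of PSMG3 includes 0, while PSMD2 lies furthest left at −1.92.

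Of the genes that help to build the particle without staying in it, all 3 cap assembly factors and 3 of the 4 core chaperones fell, 1 of them by 2-fold or more. The shares over all tested genes were 43.6% and 9.45%. The core chaperones PSMG1 to PSMG4 act as 2 pairs on the alpha ring, PSMG1 with PSMG2 and PSMG3 with PSMG4. PSMG1 fell from 60.7 and 57.4 on TCP to 22.6 and 22.9 on polymer X, and its log2 fold change was −1.34 ± 0.06 (SE, limma adjusted p = 3.8e-08). PSMG2, its partner, fell by 0.78 on the log2 scale. PSMG3 had an FPKM of 12.2 and 9.91 on TCP and 11.2 and 10.97 on polymer X. Here the groups overlapped, and the log2 fold change was 0.01 with a 95% interval of −0.19 to 0.21 (limma adjusted p = 0.91). PSMG4, with 19.95 and 16.5 on TCP and 16.3 and 14.5 on polymer X, had groups that did not overlap but nearly touched. Its log2 fold change was −0.23 ± 0.09 (SE, limma adjusted p = 0.043), and the call was lost in 6 of the alternatives, among them without TCP replicate 1 (adjusted p = 0.38), without polymer X replicate 2 (adjusted p = 0.24), and with scaling to a common median (adjusted p = 0.084). Over all alternatives its adjusted p ran from 0.0023 to 0.51. PSMG3 and PSMG4 thus had the smallest changes of the 39 tested genes, and the next smallest was −0.33.

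That value belonged to PSMD10, also known as gankyrin, which binds an ATPase during assembly of the base. PSMD10 had 40.0 and 38.9 on TCP and 31.2 and 31.1 on polymer X, without overlap, and a limma adjusted p of 0.00031 that rose to 0.41 with quantile normalization and was as low as 6.4e-06 under the other alternatives. The other cap assembly factors fell further. PSMD9 went from 22.1 and 19.1 to 10.96 and 10.5, a log2 fold change of −0.88 ± 0.07 (SE, limma adjusted p = 3.7e-06), and PSMD5 had a log2 fold change of −0.66. PSMF1, an inhibitor of the core in vitro, fell from 11.4 and 12.1 to 7.45 and 7.30, a log2 fold change of −0.61 ± 0.06 (SE, limma adjusted p = 1.7e-05).

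The fall was found across transcripts as well. The table held 93 transcript rows for the 41 genes, and 28 genes had more than 1 row. Of the 88 rows with a mean FPKM of at least 1, both polymer X libraries lay below both TCP libraries in 86, and the other 2 were those of PSMG3. Over all tested genes, counted with 1 row each, the share was 48.4%. Rows of 1 gene share tags, so they are no separate evidence. Tags were counted without regard to strand, and 4 of the genes overlap another gene on the opposite strand, PSMC2 with SLC26A5, PSMC5 with FTSJ3, PSMD1 with HTR2B and PSMG2 with CEP76. Their tags cannot be told apart from those of the partner where both share exons. The overlap was of transcript spans, and exons were not compared. Mean FPKM was 0.052 for SLC26A5 beside 25.3 for PSMC2, and 25.4 for FTSJ3 beside 122.4 for PSMC5. It was 0.267 for HTR2B beside 64.2 for PSMD1, and 3.47 for CEP76 beside 28.5 for PSMG2. Without these 4 proteasome genes, 34 of 35 were called lower, beside 43.6% of all tested genes, and the median stayed at −0.88.

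Promoter sequences were looked up because the genes moved together. RefSeq promoters on GRCh38.p14, from 250 bases before to 50 after the start, were found for 35 of the 41 genes, giving 43 promoters. The motif TGACNNNGC, the core of the antioxidant response element that NFE2L1 and NFE2L2 are known to bind, was present on either strand in 11 of the 43 (25.6%), against 13.3% of all 35116 promoters. The set of all promoters was not limited to genes expressed in these libraries. The motif CCGGAAGT, bound by factors of the ETS family, was present in 9 (20.9%), among them that of the untested PSMA8, against 4.14% of all promoters. CCAAT was present in 18 (41.9%), among them that of the untested PSMB11, against 34.6%. The core of the interferon-stimulated response element (GAAA, any 2 bases, GAAA) was present in 3 (6.98%), against 3.57%. These shares are a description with no test, and a match is not a site of binding. Matches were not confined to genes of the same direction. TGACNNNGC also lay in a promoter of PSME1, which rose. The interferon core lay in promoters of PSMA4, PSMB4 and PSMG4, which were called lower, and of PSMB8, PSMB10 and PSME1, which rose. It also lay in promoters of PSME2 and NGLY1, which were not called. The following windows of 100 bases upstream of the annotated start, read on the strand of the gene, show such matches in 5 genes that fell and in PSMB10, which rose. They were chosen after the matches were seen, and capitals mark the motif or its reverse complement.
PSMD12, TGACNNNGC, chr17:67366689-67366788, minus strand: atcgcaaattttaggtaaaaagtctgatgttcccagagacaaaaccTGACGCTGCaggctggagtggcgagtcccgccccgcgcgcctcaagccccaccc
PSMB3, TGACNNNGC, chr17:38752591-38752690, plus strand: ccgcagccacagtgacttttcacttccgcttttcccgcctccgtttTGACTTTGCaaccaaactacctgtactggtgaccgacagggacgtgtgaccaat
PSMG1, TGACNNNGC, chr21:39183581-39183680, minus strand: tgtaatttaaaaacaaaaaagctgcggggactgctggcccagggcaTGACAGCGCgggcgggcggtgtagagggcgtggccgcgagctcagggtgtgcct
PSMC2, CCGGAAGT in reverse, chr7:103347543-103347642, plus strand: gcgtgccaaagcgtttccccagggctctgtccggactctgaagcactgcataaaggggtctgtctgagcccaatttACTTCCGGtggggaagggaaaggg
PSMD13, CCGGAAGT, chr11:236876-236975, plus strand: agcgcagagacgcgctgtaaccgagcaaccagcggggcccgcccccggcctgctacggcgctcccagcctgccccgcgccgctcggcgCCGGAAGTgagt
PSMB10, core of the interferon-stimulated response element, chr16:67936851-67936950, minus strand: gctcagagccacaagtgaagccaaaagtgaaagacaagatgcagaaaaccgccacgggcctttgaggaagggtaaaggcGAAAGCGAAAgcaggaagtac

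The interferon-inducible catalytic subunits went the other way from the subunits they replace. In the immunoproteasome, PSMB8 takes the place of PSMB5, PSMB9 that of PSMB6 and PSMB10 that of PSMB7. PSMB8 had an FPKM of 3.41 and 2.77 on TCP and 8.00 and 5.79 on polymer X, with no overlap and a log2 fold change of 0.94 ± 0.13 (SE, limma adjusted p = 0.00011). PSMB10 had 19.9 and 17.2 on TCP and 28.9 and 23.9 on polymer X, again higher in both polymer X libraries, with a log2 fold change of 0.48 ± 0.10 (SE, limma adjusted p = 0.0012). Neither log2 fold change reached 1, and 75.7% of all tested genes had a lower one than PSMB10. Over all tested genes, 37.4% were called higher, and 41.9% had both polymer X libraries above both TCP libraries. PSMB9 was low, at 0.10 and 0.214 on TCP and 0.649 and 0.544 on polymer X, and did not pass the filter. The rows of PSMB8 and PSMB9 lie on alternate haplotype sequences of chromosome 6 with 8 copies each, so their levels are uncertain.

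Taken as a percentage of its constitutive counterpart, PSMB8 was at 3.40% and 2.79% of PSMB5 on TCP and at 14.3% and 10.9% on polymer X. PSMB10 was at 9.16% and 8.64% of PSMB7 on TCP and at 24.6% and 20.2% on polymer X. PSMB9 was at 0.102% and 0.234% of PSMB6 on TCP and at 1.68% and 1.70% on polymer X. Each ratio was higher in both polymer X libraries, by 4.05-fold, 2.5-fold and 10.9-fold, but the constitutive subunit remained the more abundant RNA of each pair. On the log2 scale the changes were 2.02, 1.32 and 3.45, with a pooled SD between replicates of 0.24, 0.15 and 0.60. The PSMB9 value rested on low FPKM on TCP, and it was 2.85 without TCP replicate 1 and 4.05 without TCP replicate 2. With 2 libraries per group the smallest two-sided p of an exact permutation test is 0.333, so no p is given for the ratios.

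Immunoproteasomes are known from leukocytes, and the leukocyte markers were therefore set beside these values. Of the 8 markers, 0 reached an FPKM of 1 in any library, and CD3E and LCP2 were listed at 0 in all 4. Their summed FPKM was 0.192 and 0.155 on TCP and 0.895 and 1.10 on polymer X. PTPRC had 0.468 and 0.530 on polymer X and at most 0.005 on TCP. Of the 4 endothelial markers, 0 reached an FPKM of 1 in any library. Their summed FPKM was 0.485 and 0.457 on TCP and 0.832 and 0.599 on polymer X. Among them, PECAM1 had 0 in both TCP libraries and 0.573 and 0.458 on polymer X, whereas KDR was lower on polymer X. The part of these genes in the result was not tested.

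**Figure D4:**
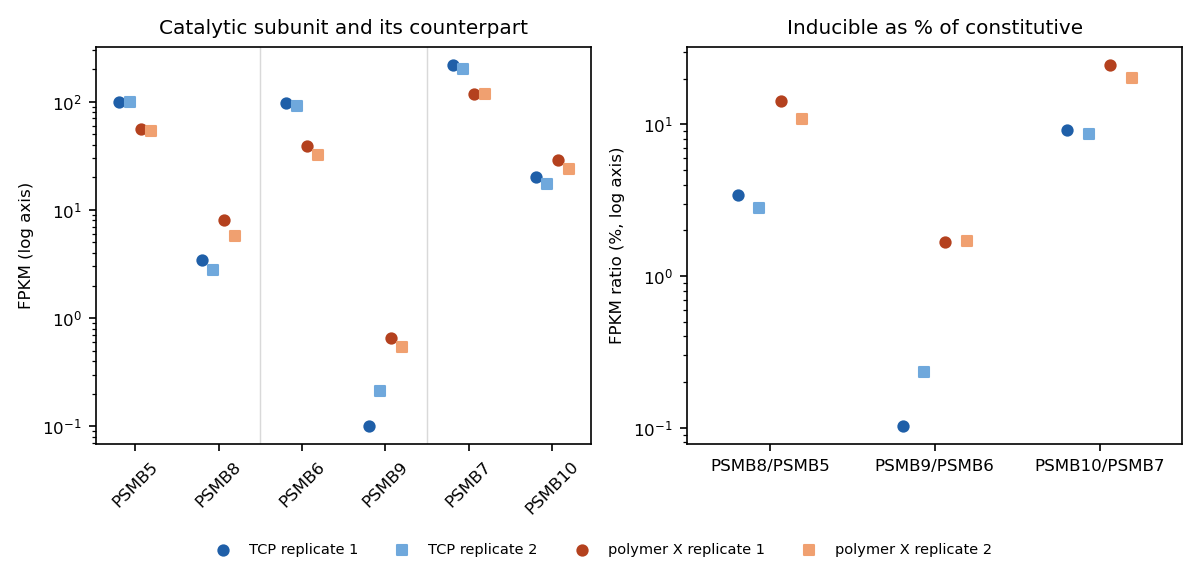
Left, FPKM on a log axis of the catalytic subunits PSMB5, PSMB6 and PSMB7 and of their inducible counterparts PSMB8, PSMB9 and PSMB10 in each library; right, the inducible subunit as a percentage of its counterpart on a log axis. The constitutive subunits are lower and the inducible ones higher in both polymer X libraries, and the ratio for PSMB8 goes from 3.40% and 2.79% to 14.3% and 10.9%.

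The genes that work with the proteasome were taken from lists of 34 names, of which 32 were tested. PSMB9 did not pass the filter, and TCF11, listed among the regulators, was not among the deposited symbols. Of these, 20 fell and 4 rose, beside 43.6% lower and 37.4% higher over all tested genes, and the median log2 fold change was −0.67. A fall of 2-fold or more was seen in 5 of the 32, against 9.45% of all tested genes, and a rise of that size in 0. The genes that rose were PSMB8, PSMB10, the activator subunit PSME1 and NUB1, which brings proteins tagged with ubiquitin-like modifiers to the proteasome. Of the 4 activator genes, 2 fell and 1 rose. PSME1, a subunit of the interferon-inducible activator ring, had an FPKM of 56.7 and 53.0 on TCP and 80.3 and 71.1 on polymer X, with a log2 fold change of 0.46 ± 0.07 (SE, limma adjusted p = 0.00022). Its ring partner PSME2 had 28.6 and 23.0 on TCP and 24.2 and 22.0 on polymer X, which overlapped, and its log2 fold change was −0.15 with a 95% interval of −0.37 to 0.07 (limma adjusted p = 0.18). Without TCP replicate 2 the PSME2 value was −0.30 (limma adjusted p = 0.0084), and with quantile normalization it was 0.08 (adjusted p = 0.43). Over all alternatives the adjusted p of PSME2 ran from 0.0084 to 0.97.

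The nuclear activator PSME3 was lower by more than 2-fold, with an FPKM of 67.6 and 68.1 on TCP and 25.8 and 23.9 on polymer X and a log2 fold change of −1.42 ± 0.06 (SE, limma adjusted p = 3.4e-08). PSME4, a large single-chain activator, had 13.2 and 13.8 on TCP and 7.39 and 6.90 on polymer X, with a log2 fold change of −0.83 ± 0.07 (SE, limma adjusted p = 2.1e-06). POMP, a chaperone that completes the assembly of the core, went from 85.1 and 72.9 to 42.7 and 40.3, a log2 fold change of −0.91 ± 0.08 (SE, limma adjusted p = 3.4e-06). All of these fell without overlap, as did the constitutive beta subunits that POMP helps to assemble. That pattern was found in 48.4% of all tested genes.

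All 5 genes of proteins that associate with the cap fell, 2 of them by 2-fold or more, beside 43.6% and 9.45% of all tested genes. ADRM1, a ubiquitin receptor, had an FPKM of 121 and 119.8 on TCP and 61.1 and 56.8 on polymer X. UCHL5, the deubiquitinase that ADRM1 recruits, had 15.9 and 15.5 on TCP and 7.03 and 5.93 on polymer X. Neither overlapped, and the log2 fold changes were −1.02 and −1.17 (limma adjusted p = 2.7e-07 and 8.2e-07). The others were the deubiquitinase USP14 at −0.91, the ligase UBE3C at −0.69 and the small subunit SEM1 at −0.67. All 5 genes of the VCP segregase list, which pulls ubiquitin-marked proteins out of membranes and complexes, were also called lower, from −0.97 for UFD1 to −0.62 for FAF2, with VCP itself at −0.81, and 0 of them passed 2-fold. Of 7 shuttle factors, which carry ubiquitin-marked proteins to the cap, 5 fell and 1 rose, and DDI2 fell furthest.

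None of the 3 tested regulators of proteasome genes was called. NFE2L1 had an FPKM of 61.4 and 63.3 on TCP and 69.5 and 66.7 on polymer X, slightly higher in both polymer X libraries. Its log2 fold change was 0.13 ± 0.06 (SE, limma adjusted p = 0.06), and it passed the threshold with quantile normalization at 0.45, with a common median at 0.17 and with the replicate block at 0.13. Its adjusted p ran from 4.8e-05 to 0.26 over all alternatives. NFE2L2 stood at −0.04 and NGLY1, which activates NFE2L1 by removing its sugar chains, at 0.08, and neither was called. DDI2, the protease known to cut NFE2L1 into its active form, had 11.02 and 11.6 on TCP and 4.18 and 4.15 on polymer X, and its log2 fold change was −1.25 ± 0.07 (SE, limma adjusted p = 1.6e-07). RNA levels do not show how much of the NFE2L1 protein was active.

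RPS27A, which encodes ubiquitin fused to a ribosomal protein, was lower by more than 2-fold. It had an FPKM of 254 and 215 on TCP and 119.5 and 107 on polymer X, with no overlap and a log2 fold change of −1.04 ± 0.09 (SE, limma adjusted p = 3.4e-06). UBB, a polyubiquitin gene, had a log2 fold change of 0.06, and its libraries overlapped. Of the ubiquitin-activating enzymes, UBA1 fell by 0.84 on the log2 scale and UBA6, at −0.12, was not called.

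**Figure D5:**
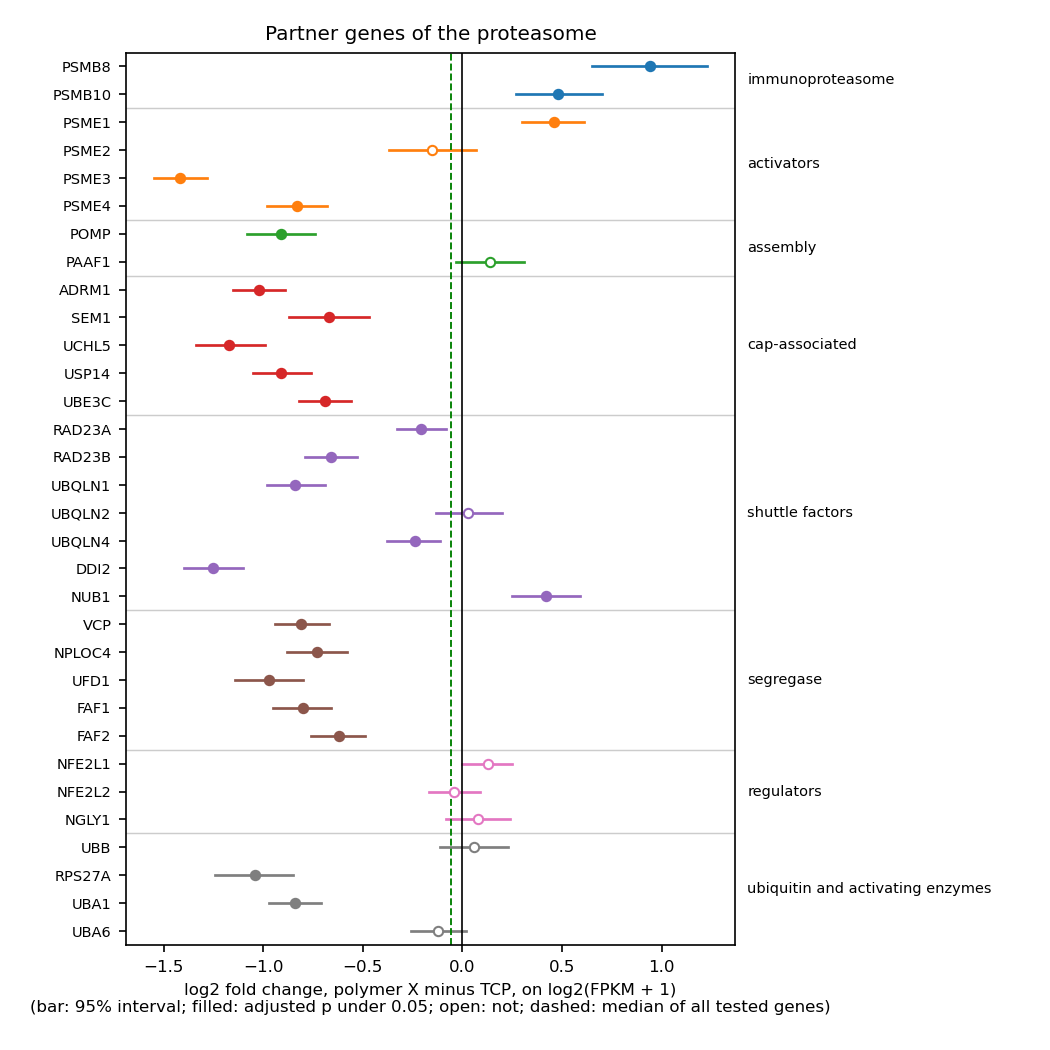
Log2 fold change, polymer X minus TCP on log2(FPKM + 1) (horizontal axis), of the 32 tested partner genes (vertical, by list) with 95% intervals. Filled points passed an adjusted p of 0.05, and they include 20 genes to the left of 0 and 4 to the right, of which PSMB8 lies furthest right at 0.94.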

How the data were processed

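The authors deposited FPKM values for 50078 RefSeq transcripts on the hg19 build, counted with HOMER on exons of both strands and scaled to transcript length and library tags. The submitters' processing notes also name STAR 2.4.0 and DESeq, without a role. Libraries came from a directional mRNA kit, but counting ignored strand. All 4 libraries were used, and all sample columns were mapped.

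Where a symbol had several transcripts, that of the highest mean FPKM was kept. The test was limma 3.58.1 (R 4.3.3) on log2(FPKM + 1), fitted with a variance trend and no block to the 11964 genes whose FPKM reached 1 in 2 or more libraries, with Benjamini-Hochberg adjustment over all of them. Genes were called at an adjusted p under 0.05, and "2-fold" adds a log2 fold change of 1 or more in size. On this scale the changes of low genes are understated. FPKM values are not counts, so no count model was run.

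In each library, 100.0% of the low values came within 0.1 tags of a whole number, which gave 38404000 to 44917000 tags. A floor of 3 tags on 2000 bases is an FPKM of 0.0334 to 0.0391, for counting error only. On simulated data with a log2 change of 1, the procedure called 198 of 199 changed genes in the right direction and 2 of 11519 unchanged ones. The mean fitted value of lowered genes was −0.84. Few genes were changed there, and noise was drawn separately for each gene, without shifts shared by many genes. In the data 43.6% of tested genes were called lower and 37.4% higher, so the simulated rates do not give the error rate of these calls.

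The genes, the partner lists (older symbols were used for SEM1 and UFD1) and the alternatives were chosen with earlier results of these data known. Every proteasome gene is named. FPKM in all libraries is given for the catalytic subunits and their counterparts, PSMD14, the extremes of each class, genes past 2-fold, PSME1 to PSME4, POMP and NFE2L1. Of the partner lists as planned, 2 genes are not reported here and were left out of the counts. Other genes given in full were chosen after their values were seen. Alternatives were a pseudocount of 0.1, no filter, a mean FPKM of at least 5, the 2-fold rule, quantile normalization, the replicate number as a block, a common median, the sum of transcripts, no trend and each library left out. Figures were drawn with matplotlib 3.10.9.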

Additional observations from a re-analysis of the deposited data

How the results depend on the processing

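Between 36 and 38 of the 39 genes were called lower, and 0 higher, under every alternative with the same threshold of adjusted p. Under the 2-fold rule the counts were 15 proteasome genes lower, 5 partners lower and 0 partners higher. With a pseudocount of 0.1, PSMF1 was at −0.67. With quantile normalization, 7 proteasome genes passed 2-fold, 7 partners were called higher, and the medians were −0.65 over all 39 genes, −0.56 for the core, −0.82 for the cap, −0.58 for the alpha ring, −0.54 for the beta ring, −0.86 for the ATPase base, −0.77 for the non-ATPase cap, −0.48 for the cap assembly factors, −0.30 for the core chaperones and −0.56 for PSMF1. Over all tested genes, quantile normalization called 36.3% higher and 8.53% lower by 2-fold or more. The cause of these shifts was not tested.

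Leaving out 1 library at a time, the medians ran from −0.96 to −0.82 over all 39 genes, −0.97 to −0.81 for the core, −1.21 to −1.0 for the cap, −0.98 to −0.76 for the alpha ring and −1.21 to −1.08 for the ATPase base. PSMG3 ran from −0.13 to 0.15 and was −0.015 as the sum of its transcripts. PSME2 ran from −0.30 to 0.0035 and was 0.078 with quantile normalization. The PSMG4 call was lost with no filter (adjusted p = 0.12), with quantile normalization (adjusted p = 0.51), with no variance trend (adjusted p = 0.061) and under the settings named above.

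With the replicate number as a block in limma, 38 genes were called lower and 0 higher, the median was −0.88, and 21 partners were lower and 5 higher. Over all tested genes, this fit called 44.3% lower and 38.3% higher. NFE2L1 and PSME2 passed the threshold there (adjusted p = 0.04 and 0.03). Over all 11964 tested genes, deviations of same-numbered libraries correlated at 0.0927. For the proteasome genes, the summed FPKM was higher in replicate 1 in both groups, at 4139 against 3910 on TCP and 2157 against 1950 on polymer X. No source says that the numbers pair the libraries.

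An alternative chosen after seeing the data left out the 4 genes that overlap another gene on the opposite strand. It gave 34 genes lower, 12 past 2-fold and a median of −0.88, beside 43.6% lower and 9.45% past 2-fold over all tested genes. With 2 libraries per group, the 95% interval of PSMG3 spanned −0.19 to 0.21, so changes of that size could not be resolved.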
